A study of Mus musculus with 2 samples.

Results

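The 47 genes described here carry out fat uptake, fat synthesis, fat storage and fat release, or encode the hormones of the mature fat cell. They were measured in PDGFRα+ cells sorted from inguinal fat of floxed and Sox9 PreASKO mice. The list was drawn up by name, from the known roles of the genes, without a measured value as a criterion. Earlier results of these data were known when it was chosen. A gene was measured through probe sets that the platform annotation assigns to that gene alone, and of several such sets the brightest over both arrays was used. This gave 45 of the 47 genes, out of 19938 genes on the array. Acsl1 and Acsl3, which encode acyl-CoA synthetases, had no probe set assigned to them alone. The only set listed for Acsl3 also names Utp14b and was left out.

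The control array held RNA of female mice aged 6 weeks with floxed Sox9, and the other array RNA of female Sox9 PreASKO mice of the same age. Mice of both groups received doxycycline at postnatal day 1, and each array held RNA pooled from 3 mice, per the series' design text. The cells were PDGFRα+ cells from the stromal vascular fraction, which is what remains of the digested fat pad without its adipocytes. PDGFRα is a surface receptor of stromal fibroblasts and adipocyte precursors, and Sox9 encodes a transcription factor. The promoter behind the recombination and the meaning of the name PreASKO are not given in the sources used here. With 1 array per group the differences have no replicate check, and neither errors nor p-values are given.

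A fat cell takes up fatty acids released from blood lipoproteins, or makes them from glucose through acetyl-CoA, and joins them to glycerol as triglyceride. The triglyceride is stored in a droplet coated by perilipins, and lipases release it again under hormonal control. Adipocyte precursors carry part of this machinery already, while the hormones leptin and adiponectin and the droplet protein CIDEC are known as products of the mature cell. The uptake genes Cd36, Fabp4, Fabp5 and Lpl and the droplet gene Plin2 are also known from macrophages, and Gpihbp1, Fabp4 and Cd36 from capillary endothelium.

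All values are log2 intensities as deposited, and each difference is PreASKO minus floxed on that scale, so that 0.58 stands for 1.5-fold, the limit named in the series' design text. Background was taken from 1027 olfactory receptor genes, which are assumed to be silent in these cells. Their 95th percentile was 4.64 in floxed and 4.47 in PreASKO, and the higher value was used for both arrays. By this mark 35 of the 45 genes were above background in both arrays, which is 77.8%, beside 55.2% of all genes. Plin5 crossed the mark, and 9 genes were below it in both arrays. Against the stricter 99th percentile of the olfactory receptor genes, 5.43, 28 of the 45 genes were above it in both arrays, beside 42.3% of all genes.

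The genes above background were not spread evenly over the steps. All 9 measured genes of uptake were above the mark in both arrays, as were 11 of 12 of fatty acid synthesis, 7 of 9 of triglyceride synthesis, 4 of 7 of the droplet and 4 of 5 of lipolysis. None of the 3 adipokine genes was. At the 99th percentile the counts were 8, 10, 5, 2, 3 and 0 in the same order. Both arrays thus held signal for most of the enzymes that make, store and release fat, and no signal above the common mark for the 3 hormone genes.

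**Figure D1:**
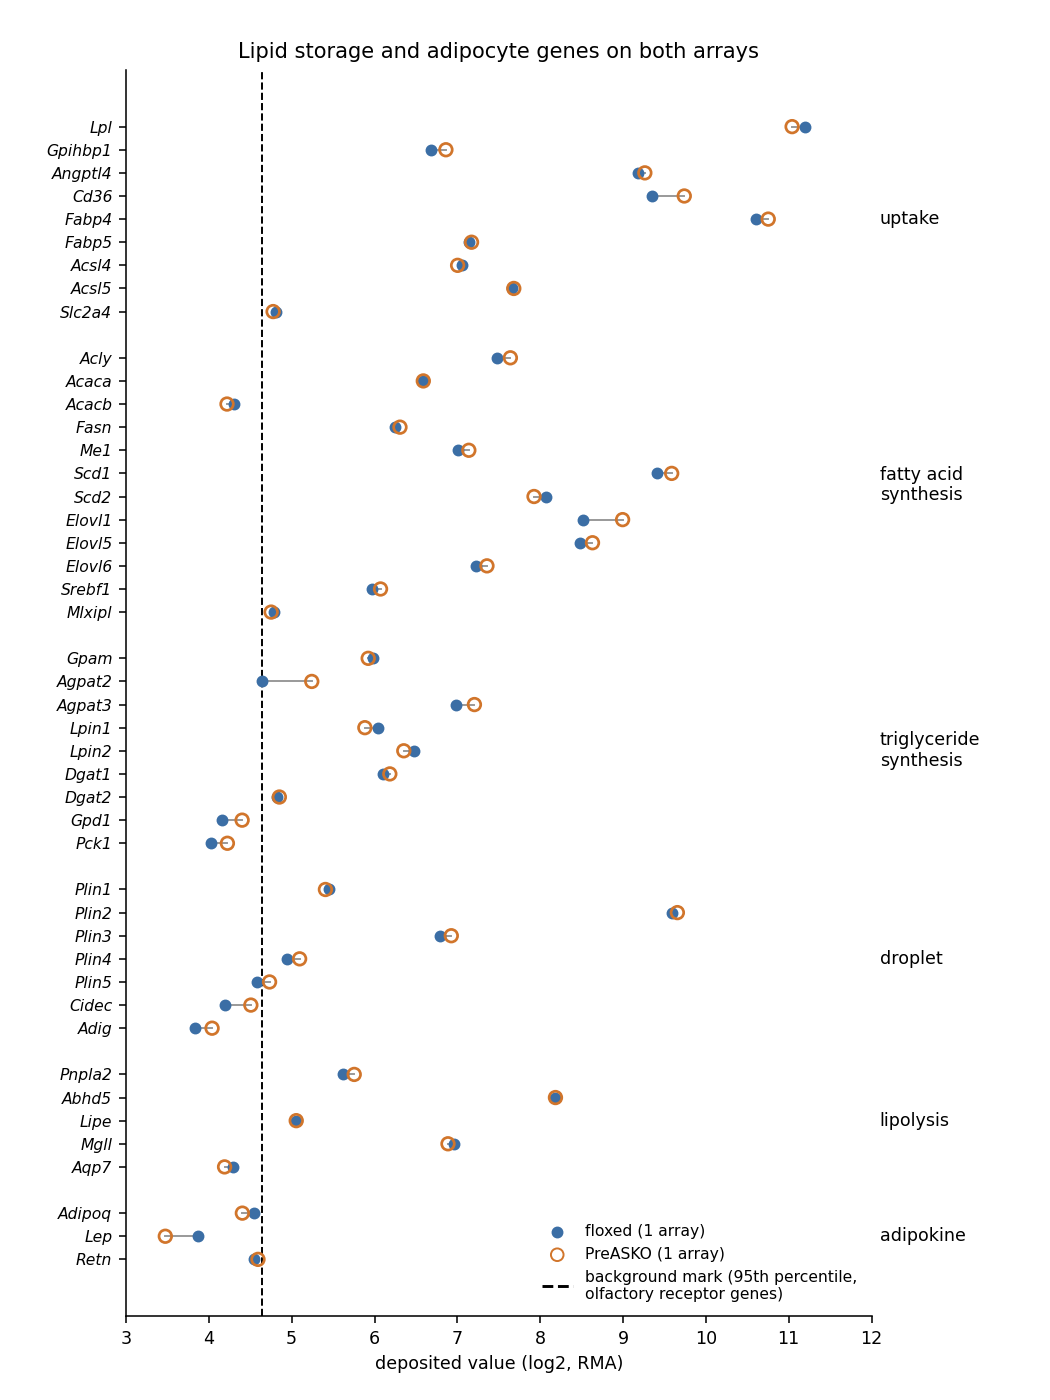
Deposited log2 value of each of the 45 measured genes on the floxed array (filled) and the PreASKO array (open), by step; the dashed line is the background mark at 4.64. Levels of different genes rest on different probes and cannot be ranked. The pairs lie close together throughout, and Lep, Adipoq and Retn lie left of the mark on both arrays.

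Between the arrays 1 of the 45 genes, Agpat2, was at least 1.5-fold higher in PreASKO, beside 1.66% of all genes, and none was 1.5-fold lower, beside 1.98% of all genes. Among all genes above background in both arrays these shares were 1.33% and 0.826%. A count of 1 (2.22%) is near the background and is not a result about these genes. The differences ran from -0.40 (Lep) to 0.60 (Agpat2), with a median of 0.064 (0.024 with values below the mark raised to it), beside a median of 0 over all genes and of 0.021 over the 11015 genes above background in both arrays. In 37 of the 45 genes the difference was below 0.2 in either direction, and in 18 below 0.1. Of the 35 genes above background 25 were higher and 10 lower in PreASKO, so that 71.4% were higher, beside 53.4% of all genes above background. Over all 45 genes 31 were higher, and 29 after quantile normalization or 28 after a loess correction. Of all 19938 genes 9614 were higher, and 10292 after quantile normalization or 9967 after the loess correction. The count of lipid genes thus fell under both rescalings while that of all genes rose. The 641 genes with at least 2 probe sets above background show how far probe sets of a gene agree on such a difference. Both sets read the same RNA pools, so variation between mice, sorts or arrays is not covered. The PreASKO minus floxed differences of the brightest pair of probe sets lay apart by a median of 0.103 and, at the 95th percentile, by 0.531. In 28.7% of these genes the 2 differences had opposite signs. The median absolute difference of the 45 lipid genes was 0.130, beside 0.139 over all genes above background.

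**Figure D2:**
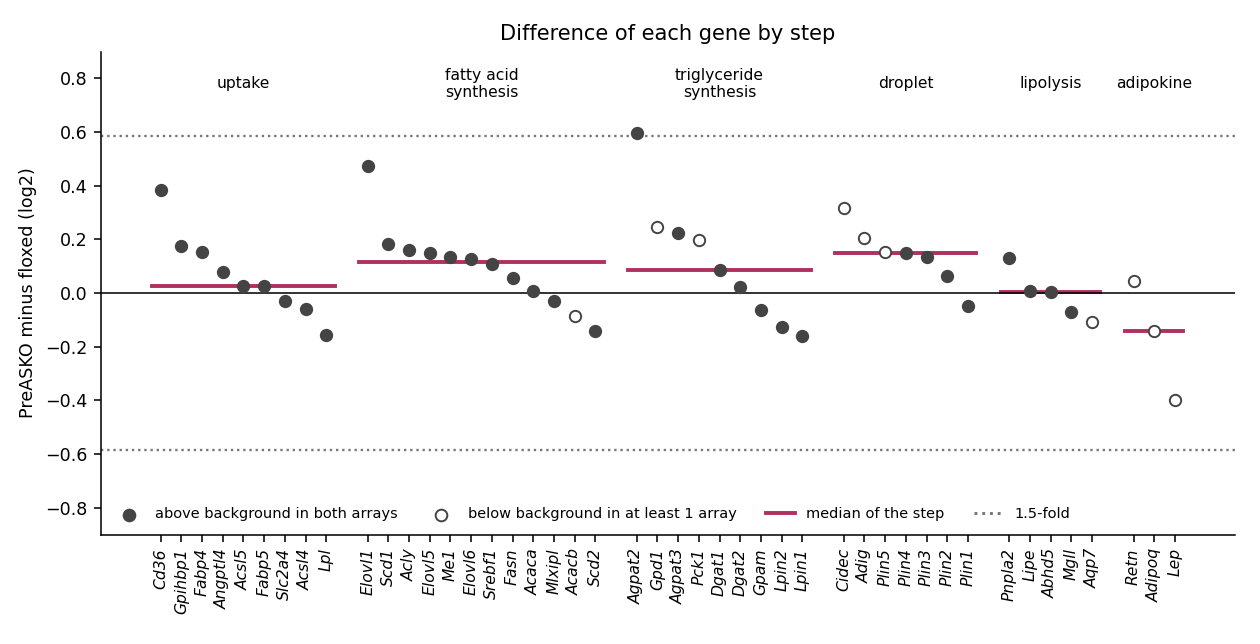
PreASKO minus floxed on the log2 scale for each gene, sorted within each step; filled points were above background in both arrays, bars are the medians of the steps and dotted lines 1.5-fold. Agpat2 alone passes the dotted line, Elovl1 (0.47) and Cd36 (0.38) come next, and the adipokine genes are all open points.

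The promoter sequences of Agpat2, Elovl1 and Cd36, the 3 most positive differences above background, and of the adipokine genes Lep and Adipoq, both below background, are shown to set a promoter of each kind side by side. They are RefSeq windows of assembly GRCm38.p6, from 250 bases before to 50 after the annotated start, read 5′ to 3′ on the strand of the gene. Capitals mark matches on either strand to the CCAAT box (CCAAT), the E-box (CACGTG), the GC box (GGGCGG), the TATA box (TATAAA), the nuclear receptor half-site (AGGTCA), its direct repeat (AGGTCANAGGTCA), a sterol element (TCACCCCA), a SOX core (ACAATG) and a C/EBP palindrome (TTGCGCAA). The direct repeat contains the half-site, and neighbouring matches can run together. For Elovl1 the first of 2 annotated starts is shown.
Agpat2 (chr2:26604368-26604667, minus strand): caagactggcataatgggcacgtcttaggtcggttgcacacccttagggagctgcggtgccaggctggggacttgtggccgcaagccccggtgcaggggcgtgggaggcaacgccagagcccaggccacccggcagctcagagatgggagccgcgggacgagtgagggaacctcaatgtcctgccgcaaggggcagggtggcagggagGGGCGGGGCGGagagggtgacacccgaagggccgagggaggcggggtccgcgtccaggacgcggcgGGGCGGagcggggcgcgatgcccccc
Elovl1 (chr4:118427843-118428142, plus strand): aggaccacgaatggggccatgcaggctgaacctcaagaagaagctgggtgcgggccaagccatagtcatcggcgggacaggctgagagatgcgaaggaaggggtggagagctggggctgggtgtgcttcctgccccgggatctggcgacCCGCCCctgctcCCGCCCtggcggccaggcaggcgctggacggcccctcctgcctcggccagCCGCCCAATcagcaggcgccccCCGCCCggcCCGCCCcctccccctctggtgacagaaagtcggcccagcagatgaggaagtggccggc
Cd36 (chr5:17835847-17836146, minus strand): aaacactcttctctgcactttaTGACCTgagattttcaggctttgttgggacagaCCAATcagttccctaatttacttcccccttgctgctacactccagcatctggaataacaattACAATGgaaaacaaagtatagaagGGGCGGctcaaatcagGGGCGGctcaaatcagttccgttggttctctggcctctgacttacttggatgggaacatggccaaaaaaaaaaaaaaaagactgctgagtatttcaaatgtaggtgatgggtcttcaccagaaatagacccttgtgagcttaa
Lep (chr6:29059971-29060270, plus strand): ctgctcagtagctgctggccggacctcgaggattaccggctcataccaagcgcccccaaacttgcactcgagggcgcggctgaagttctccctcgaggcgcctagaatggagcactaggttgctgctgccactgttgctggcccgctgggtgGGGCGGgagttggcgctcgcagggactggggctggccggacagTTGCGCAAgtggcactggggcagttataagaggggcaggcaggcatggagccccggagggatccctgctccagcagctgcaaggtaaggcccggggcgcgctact
Adipoq (chr16:23146286-23146585, plus strand): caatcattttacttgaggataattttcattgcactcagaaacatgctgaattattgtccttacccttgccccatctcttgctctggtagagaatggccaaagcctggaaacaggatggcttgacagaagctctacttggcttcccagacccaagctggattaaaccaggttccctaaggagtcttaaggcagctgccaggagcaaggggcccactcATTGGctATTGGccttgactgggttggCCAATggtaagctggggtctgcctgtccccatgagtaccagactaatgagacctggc

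The promoter of Agpat2 held 26 CpG dinucleotides and GC boxes as its only matches, and that of Elovl1 held 20, with 5 GC boxes and 1 CCAAT box. The Cd36 window held 3 CpGs, with a half-site, a CCAAT box, a SOX core and 2 GC boxes. The Lep window held 19, a GC box and the C/EBP palindrome, and the Adipoq window no CpG and 3 CCAAT boxes. Windows were found for 34 of the 45 genes, 47 windows in all; Angptl4, Dgat1, Dgat2, Fabp4, Fabp5, Gpd1, Gpihbp1, Lpl, Scd1, Scd2 and Slc2a4 had none in the table. The median number of CpGs was 17 in the 35 windows of genes above background in both arrays and 6 in the 12 windows of the others, beside 7 in all 32851 windows. GC boxes were in 57.1% of the former and 33.3% of the latter, beside 35.7% of all windows. The E-box was in 17.1% and 0%, beside 7.15%, and the half-site in 8 of 35 and 6 of 12 windows, beside 16.3%. The CCAAT box was in 42.9% and 33.3% (37.4% of all), and the SOX core in 8.57% and 16.7% (12.6% of all). Of the rarer motifs, the full direct repeat was in no window of these genes (0.0396% of all), the C/EBP palindrome in the Lep window alone (0.183% of all), the TATA box in that of Acacb alone (13.6% of all) and the sterol element in that of Gpam alone (1.56% of all). Genes with several starts count once per start, so these shares describe windows, and a match is not evidence of binding. The 35 windows came from 25 genes and the 12 windows from 9. Windows of all genes above background were not counted apart, so whether these values are particular to the lipid genes was not tested.

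Genes of fatty acid uptake were present on both arrays with small differences. Lpl encodes lipoprotein lipase, which frees fatty acids from circulating lipoproteins, and was at 11.20 in floxed and 11.04 in PreASKO, a difference of -0.16. Gpihbp1, whose product anchors that lipase at the capillary wall, was at 6.69 and 6.86. The lipase inhibitor gene Angptl4 was at 9.18 and 9.26. Values of these genes of lipoprotein hydrolysis thus lay within 0.2 of each other between arrays. Cd36, the fatty acid translocase, was at 9.36 and 9.74, and its difference of 0.38 was the most positive of this step, though below 1.5-fold. The fatty acid binding protein gene Fabp4 was at 10.60 and 10.75. Fabp5, a second member of that family, was at 7.15 and 7.17, and its other probe set at 6.92 and 6.94 gave the same difference of 0.025. Acyl-CoA synthetases, which activate fatty acids for esterification, were level, with Acsl5 at 7.66 and 7.68 and Acsl4 at 7.06 and 7.00. Slc2a4, the insulin-responsive glucose transporter GLUT4 of mature fat and muscle, was at 4.81 and 4.78, just above the mark of 4.64. The step had a median difference of 0.026, with 6 of 9 genes (66.7%) higher. All 9 were above background, and 53.4% of all genes above background in both arrays were higher, beside 48.2% of all genes.

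In fatty acid synthesis 9 of 12 genes (75%) were higher in PreASKO, beside 48.2% of all genes, with a median difference of 0.12. Of its 11 genes above background in both arrays 9 (81.8%) were higher, beside 53.4% of all genes above background. Acaca and Me1 count among the 9, though their direction changed with the probe set. Acly, the enzyme that makes cytosolic acetyl-CoA from citrate, was at 7.48 and 7.64. Acaca, acetyl-CoA carboxylase 1, was at 6.58 and 6.59, and Acacb, the second carboxylase, lay below background in both arrays at 4.31 and 4.22. Fasn, fatty acid synthase, was at 6.25 and 6.31. These enzymes of the core pathway, Acacb apart, thus gave signal in both groups with differences below 0.2. Another probe set of Acaca was dimmer, at 4.70 and 4.58, and had the opposite sign, as did the brighter one after quantile normalization and after the loess correction. Malic enzyme, encoded by Me1 and a source of NADPH for synthesis, was at 7.00 and 7.14, but its other probe set was at 7.04 and 6.94, so that its direction was not settled.

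Elongation and desaturation followed. Elovl1, an elongase of very long chain fatty acids, was at 8.52 and 8.995, and its difference of 0.47 was the nearest to the 1.5-fold limit from below. Elovl5, which elongates polyunsaturated fatty acids, was at 8.48 and 8.63, and Elovl6, which elongates palmitate, at 7.23 and 7.36. All 3 elongases were higher in PreASKO, Elovl5 and Elovl6 by only 0.15 and 0.13. The stearoyl-CoA desaturase genes differed in opposite directions, Scd1 at 9.40 and 9.59 and Scd2 at 8.07 and 7.93. Of the transcription factors of lipogenesis, Srebf1 was at 5.96 and 6.07, and Mlxipl, which encodes the carbohydrate-responsive factor ChREBP, was at 4.78 and 4.75, just above the mark.

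Triglyceride synthesis held the only gene past the limit. Agpat2 encodes an acyltransferase that makes phosphatidic acid, and its loss causes congenital lipodystrophy. It was at 4.65 in floxed and 5.24 in PreASKO, a difference of 0.60 or 1.51-fold, on probe set 10481092. The floxed value exceeded the background mark by only 0.0021 and stood at percentile 95.03 of the olfactory receptor genes, and the PreASKO value at percentile 98.7. At the stricter mark of 5.43 both values were below background. Agpat3, another acyltransferase of this family, was at 6.98 and 7.21. The other enzymes of the step lay on both sides of 0. Gpam, which starts glycerolipid synthesis in mitochondria, was at 5.99 and 5.92. The phosphatidate phosphatase genes Lpin1 and Lpin2 were both lower in PreASKO, Lpin1 at 6.04 and 5.88 and Lpin2 at 6.48 and 6.35. Dgat1 and Dgat2 encode unrelated enzymes of the last step, and were at 6.10 and 6.19 (Dgat1) and at 4.83 and 4.85 (Dgat2). Gpd1 and Pck1, which supply glycerol 3-phosphate, were below background in both arrays, Gpd1 at 4.16 and 4.40 and Pck1 at 4.03 and 4.22, so that their differences of 0.25 and 0.20 are within background. The step median was 0.085, 0.024 over its genes above background, and 0 with values below the mark raised to it.

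Of the droplet genes 4 perilipin genes were above background in both arrays, with differences below 0.2. Plin2, the perilipin of most cell types, was at 9.59 and 9.66, and Plin3, also widely expressed, was at 6.79 and 6.93. Plin1, the perilipin of the mature fat cell, was at 5.46 and 5.41, and Plin4 at 4.95 and 5.10. Plin5, known from oxidative tissues, lay just outside the mark, at 4.58 in floxed below it and at 4.73 in PreASKO above it. Plin4 and Plin5 are neighbouring protein-coding genes in the RefSeq gene table. Cidec, which fuses droplets into the large droplet of the white fat cell, was below the common mark at 4.19 and 4.51. Its PreASKO value was above that array's own 95th percentile of 4.47, at percentile 95.2. Adig, the small adipocyte protein adipogenin, was below the mark at 3.83 and 4.04. The median of 0.15 over the 7 droplet genes therefore rests in part on genes within background. It was 0.064 when values below the mark were raised to it.

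Lipolysis genes hardly differed. Pnpla2, the triglyceride lipase ATGL, was at 5.62 and 5.76, and Abhd5, its coactivator CGI-58, at 8.18 in both. Lipe, hormone-sensitive lipase, was at 5.05 and 5.06, and the monoglyceride lipase gene Mgll at 6.96 and 6.89. All the lipases that act in turn on triglyceride were thus above the mark in both groups, with Lipe above the 95th but not the 99th percentile. Aqp7, the glycerol channel of fat cells, was below background at 4.30 and 4.19.

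The adipokine genes lay below the mark of 4.64 in both arrays. Adipoq was at 4.55 and 4.40, percentile 94.2 of the olfactory receptor genes in both arrays. Retn, which encodes resistin, was at 4.55 and 4.59, percentiles 94.3 and 95.7. Its PreASKO value was thus above that array's own 95th percentile of 4.47, though below the common mark. Lep was at 3.87 and 3.47, percentiles 80.9 and 69.6. The difference of Lep, -0.40, is the most negative of all 45 genes and lies entirely within background, where it became 0 once values were raised to the mark. In a bulk array fewer cells of a type and less RNA per cell cannot be told apart, so these values do not say whether a few mature cells were present. Of 11 measured markers of mature fat cells outside the list 4 were above background in both arrays. They were the carbonic anhydrase gene Car3 (7.53 and 7.65), Nnat (5.92 and 5.93), Trarg1 (6.18 and 5.95) and Pde3b (5.53 and 5.70). The other 7 were below it in both.

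**Figure D3:**
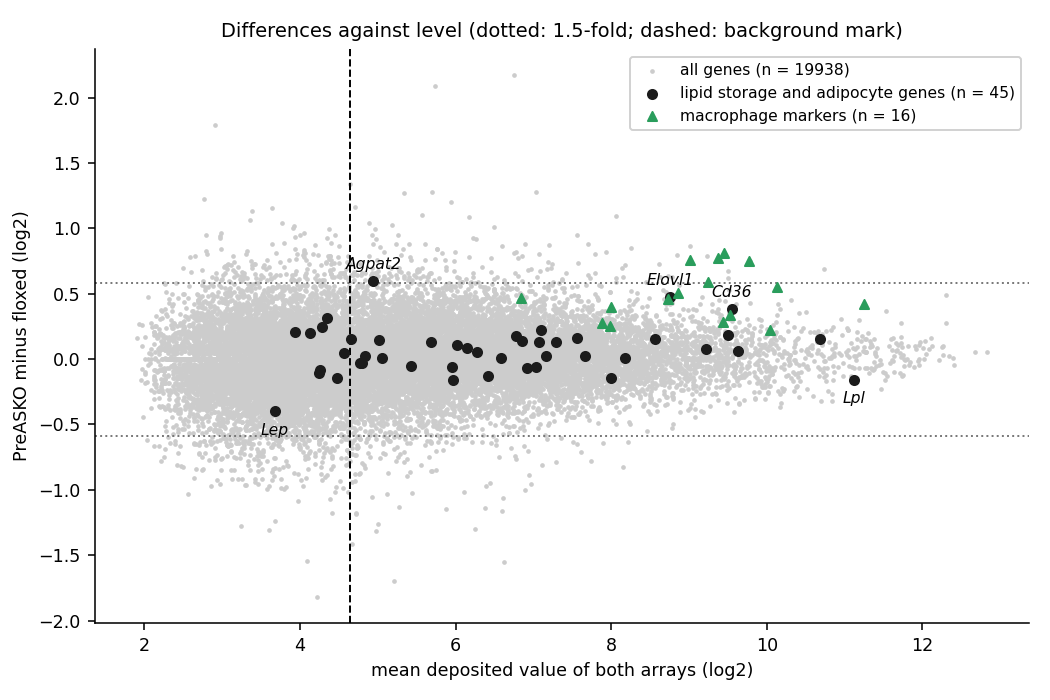
PreASKO minus floxed against the mean value of both arrays for all 19938 genes (grey), the 45 lipid storage and adipocyte genes (black) and 16 macrophage markers (green). The lipid genes lie inside the cloud at every level, while the macrophage markers lie above 0, from 0.22 to 0.81.

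Related genes of the same steps were taken from lists of 93 measured genes. Of these 50 were higher and 42 lower in PreASKO, with a median of 0.016. Those past 1.5-fold were 2 higher and 1 lower, beside 1.66% and 1.98% of all genes. These counts are near the background and are not a result about the related genes. Around uptake, the lipoprotein receptor gene Scarb1 (5.05 and 5.46) had the most positive difference of 16 genes and the caveolin gene Cav2 (5.79 and 5.24) the most negative, 1.47-fold lower. In fatty acid synthesis Hacd1, a dehydratase of chain elongation, was 1.56-fold lower (6.01 and 5.37), but its other probe set gave -0.25. The 23 genes of that list had a median of 0.031. Among 13 genes of triglyceride synthesis the acyltransferase gene Agpat4 (0.37) and the phosphatidate phosphatase gene Lpin3 (4.86 and 4.76) marked the ends of the range above background, and the difference of Gpat4 (7.30 and 7.20) was nearly that of Lpin3. Among 14 droplet genes these were Bscl2, the seipin gene of droplet formation (0.27), and Pcyt1a, which makes phosphatidylcholine for droplet surfaces (-0.25). Among 13 lipolysis genes they were the phospholipase gene Pnpla8 (0.21) and the protein kinase A subunit gene Prkacb (-0.33). Of 14 secreted factors Retnla, which encodes RELMα, was 1.62-fold higher (10.39 and 11.08), and Sfrp5 passed the limit within background.

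The cells carried the markers of their label. Of the lists of other cell types, only that of macrophages went the same way in every gene. All 13 measured fibroblast and precursor markers were above background in both arrays, with mean values of 10.49 and 10.44. Of these 3 were higher and 10 lower in PreASKO, with a median of -0.045. The share higher was 23.1%, beside 53.4% of all genes above background. Pdgfra was at 9.86 and 9.55. Sox9 itself was at 5.25 and 4.97, a difference of -0.27, below the limit. Both values were below the stricter mark of 5.43, and RMA compresses differences of dim genes. Whether the Sox9 probes lie in the deleted part was not examined, so this difference does not measure the loss of Sox9. All 16 macrophage markers were above background and higher in PreASKO, by a median of 0.46, with means of 8.85 and 9.34 and 5 of them past 1.5-fold. Of the lipid genes known from macrophages, Cd36 (0.38), Fabp4 (0.15) and Plin2 (0.064) moved in the same direction, Fabp5 was nearly level and Lpl (-0.16) moved in the other. The part of macrophage RNA in these differences was not tested. Endothelial markers had a median of 0.021 over 13 genes, with means of 5.05 and 5.04, and 5 were below background in both arrays. Of the 13 genes 7 were higher and 6 lower in PreASKO, and Kdr was 1.61-fold lower. Mural markers had a median of -0.23 over 10 genes, with means of 5.36 and 5.28, and went both ways, 4 higher and 6 lower. Of the 7 above background in both arrays 5 were lower and 2 higher, with a median of -0.33. Kcnj8 was 1.54-fold lower, Notch3 was 1.38-fold higher, and Cnn1 was 1.54-fold higher within background. Of 10 mammary epithelial markers 8 were below background in both arrays, Epcam, Krt5, Krt14 and Krt18 among them. The list's means were 4.10 and 4.50 and its median difference was 0.25. The 2 above background were Krt8 (5.93 and 6.31) and Glycam1, which was 4.51-fold higher in PreASKO (5.66 and 7.84). Which cells gave the Glycam1 signal was not tested. The part of these cell types in the lipid genes was not tested either.

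**Figure D4:**
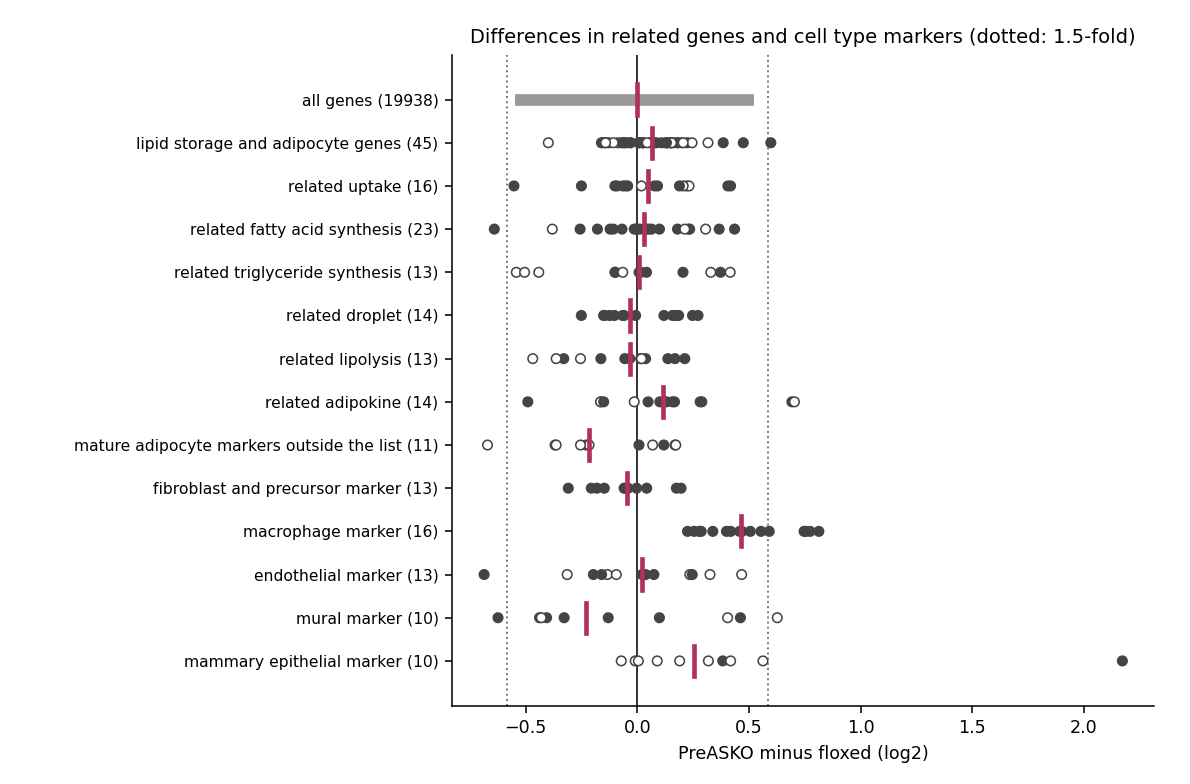
PreASKO minus floxed for the lipid storage and adipocyte genes, related genes and cell type markers; each point is a gene (filled where above background in both arrays), red bars are medians, the grey bar is the middle 95% of all genes (-0.55 to 0.52) and the number of genes is in brackets. The macrophage markers are all right of 0, and the lipid genes are centred near it.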

How the data were processed

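RNA of PDGFRα+ cells was labelled with biotin and hybridised to 1 array per group. The authors deposited log2 values of 35556 probe sets, made with RMA per the submitters' processing notes. RMA subtracts background, equalises the distributions of the arrays and combines the probes of a set. Its version, filters and log base are not given in the sources used here; the range of the values (1.23 to 13.8) is that of a log2 scale. RMA compresses differences of dim genes. Median values were 4.73 (floxed) and 4.71 (PreASKO), with r = 0.982 across probe sets. The platform annotation, which can be old, gave the gene names: 21789 named 1 gene, 1621 several, and 12146 were not listed.

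Computed here were the difference per gene, its place against the 1.5-fold limit, and the background mark from olfactory receptor genes. There was no test. The genes, steps, related lists and markers were chosen with earlier results of these data known. Some related lists hold old and new names of 1 gene, counted once, and some markers of mature fat cells also stand in them. Every measured gene of the list is named; related genes are named if past 1.5-fold and above background in an array, otherwise as the extremes above background, and Sfrp5 was named after its values were seen. Steps were tested on simulated data. Alternatives were the mean over probe sets, quantile normalization, loess (span 0.3), centring, raising values to background, keeping genes above background in at least 1 array, the 99th percentile, each array's own percentile and a 2-fold limit. Python 3.11.15, pandas 2.3.3, numpy 2.4.6, statsmodels 0.14.6 and matplotlib 3.10.9 were used.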

Additional observations from a re-analysis of the deposited data

How the results depend on the processing

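The count of genes above background was 35 under the mean over probe sets, quantile normalization, loess and each array's own percentile, and 28 at the 99th percentile. Agpat2 was past 1.5-fold under each of these rescalings (0.60 to 0.61), but at a 2-fold limit the count of higher genes fell to 0. With values raised to background the adipokine and triglyceride synthesis medians became 0, the droplet median 0.064 and the median over all 45 genes 0.024 (from 0.064). That setting put the 9 genes below background in both arrays, Acacb, Gpd1, Pck1, Cidec, Adig, Aqp7, Adipoq, Lep and Retn, at 0 by construction. Signs turned in 3 genes near 0, Acaca, Abhd5 and Fabp5, under at least 1 rescaling, and Me1 moved from 0.13 to 0.017 with the mean over its probe sets. The lipolysis median went from 0.0050 to -0.0012 (quantile) and -0.020 (loess). Centring changed nothing. No paired analysis was possible because a group is a single array; for the same reason replicates could not be left out, and the number of arrays limits the precision.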
